A study of Mus musculus with 8 samples.

Results

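Atf4 and 9 genes of the amino acid response were followed in the ventricles of mouse embryos at embryonic day 11.5. The sample titles give the tissue only as heart. The 10 genes are the stress factors Atf4, Ddit3 and Trib3, the enzymes Asns, Psat1, Phgdh and Shmt2, and the transporter subunits Slc7a5, Slc7a11 and Slc3a2. They were chosen by symbol on the primary chromosomes, and each stood on 1 of the 52778 rows of the table. There were 4 libraries from conditional knockout embryos (cKO) and 4 from control embryos. In the cKO both copies of Rps19bp1 carry loxP sites (Rps19bp1 fl/fl) and 1 copy of Xmlc2-Cre (Xmlc2-Cre +/−) removes the gene in cardiomyocytes. The series text does not say which of these alleles the control embryos carry, and the genotype label reads C57BL/6 WT for all 8 libraries. The ventricle also holds endocardial, epicardial, mesenchymal and blood cells, which this Cre is not described as targeting. Nothing states whether a library is 1 embryo or a pool, so p-values measure the spread between these libraries.

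Values are TPM, a unit that divides reads by transcript length and so allow levels to be compared between genes. The depth behind each value is unknown, since TPM keeps no counts. Of the tissue checks, 10 cardiomyocyte genes summed to between 48154 and 52721 TPM in the 8 libraries. Although the extraction text speaks of cortical neurons, 7 of 8 neuronal genes had a mean below 1 TPM, and Neurod1 and Neurod6 were listed at 0 throughout. Tubb3 was the most abundant of the 8, with a mean of 8.78 TPM over the 8 libraries. The targeted gene Rps19bp1 stood at 14.96 TPM ± 3.14 in cKO and 39.9 TPM ± 3.93 in control (SD, n = 4). A gene was called changed at a limma adjusted p under 0.05, adjusted by Benjamini-Hochberg over all 15541 rows with a mean of at least 1 TPM. At this threshold 6.4% of tested rows were called, 4.23% lower and 2.16% higher in cKO. After quantile normalization the calls were 380 lower and 383 higher, against 658 lower and 336 higher on TPM as deposited. Mitochondrial transcripts took 14.2% ± 1.39 of TPM in cKO and 11.9% ± 0.350 in control (SD, n = 4), which lowers all other values slightly.

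Atf4 encodes a bZIP transcription factor at the centre of the integrated stress response. When amino acids run short or unfolded protein accumulates, kinases phosphorylate the initiation factor eIF2, most translation slows, and the Atf4 message is translated better because of short reading frames in its leader. Its protein is therefore controlled largely at translation, and RNA levels do not measure it. The protein binds composite C/EBP-ATF elements, often with a C/EBP partner, and switches on genes for amino acid uptake, amino acid synthesis and tRNA charging.

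The composite element is shown first, since it is the kind of sequence that the Atf4 protein binds. The core TGATGNAA was searched on both strands of RefSeq promoter windows (GRCm38.p6, 250 bases before to 50 after each gene's start). It was found in 1304 of 32851 windows (3.97%). A window was listed for 9 of the 10 genes (10 windows in all), Slc7a5 being the exception. A gene counted if any of its windows held the core, and 3 of the 9 did. These are Asns, Slc7a11 and Trib3. The stretches of these windows that hold the core, of 100, 100 and 30 bases, are printed 5′ to 3′ on the gene's strand with the core in capitals. The Asns stretch is chr6:7693210-7693309, that of Slc7a11 is chr3:50443614-50443713 and that of Trib3 is chr2:152344028-152344057, all on the minus strand.
Asns: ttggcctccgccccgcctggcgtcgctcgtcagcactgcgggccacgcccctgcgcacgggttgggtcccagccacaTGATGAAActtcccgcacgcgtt
Slc7a11: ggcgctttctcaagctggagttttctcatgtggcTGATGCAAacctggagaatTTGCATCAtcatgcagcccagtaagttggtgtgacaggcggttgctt
Trib3: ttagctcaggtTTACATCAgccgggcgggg
In Asns the core reads in the sense direction and begins 23 bases upstream of the start. Slc7a11 holds a pair of cores facing each other, 1 in the sense direction beginning 66 bases upstream and 1 in the antisense direction beginning 47 bases upstream. The start used for Slc7a11 lies inside the longer span that the table lists for the gene. In Trib3 the core lies in the antisense direction and begins at base 15 downstream of the start. A match describes letters in a window and not binding.

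Across the 10 genes the cKO ventricle showed 1 call, a lower level of Slc7a5. Of the 10, 9 reached a mean of 1 TPM and were tested. Thus 1 of 9 was called lower (11.1%) and 0 higher, beside 4.23% of all tested rows called lower. At an unadjusted p under 0.05 there were 5 of the 9, beside 23.7% of all tested rows. All 9 fitted changes lay below 0 (8 after quantile normalization), as did 55.8% of all tested rows (51% after quantile normalization). Their median was -0.18 against -0.02 for all tested rows. In 3 of the 9 every cKO library lay below every control library (Slc7a5, Shmt2 and Slc3a2), beside 10.3% of all tested rows. In 0 of the 9 the cKO lay wholly above control, beside 5.33% of all tested rows. All fitted changes are differences of log2(TPM + 1), a scale on which a low gene's change comes out too small. In whole tissue, fewer cells of a type and less RNA per cell cannot be told apart.

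**Figure D1:**
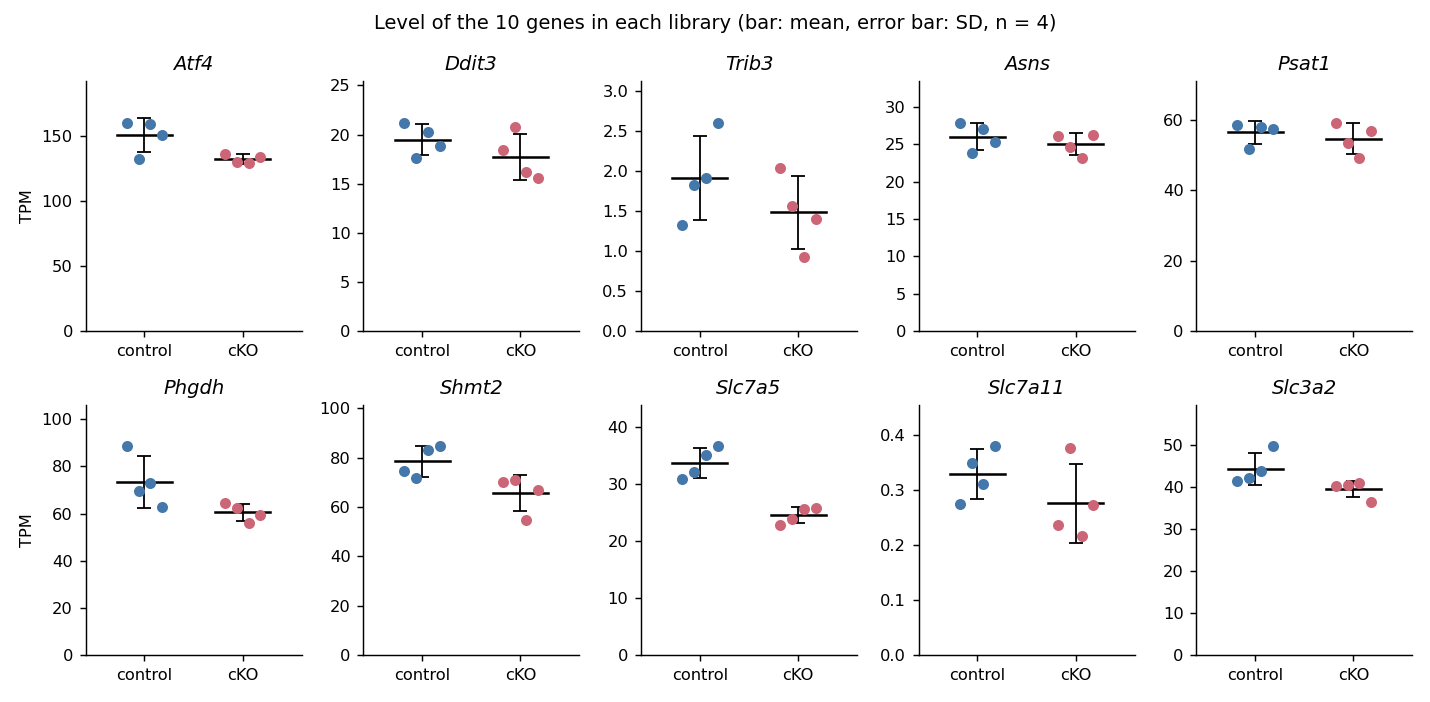
TPM of each of the 10 genes in the 4 control and 4 cKO libraries, with the mean (bar) and SD (error bar) of each group and every vertical axis starting at 0. The Slc7a5 points separate, at 22.8 to 25.8 TPM in cKO and 31.0 to 36.6 TPM in control, while for Asns and Psat1 the groups lie on top of each other.

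In control ventricles the levels ran from Atf4 (151 TPM ± 13.1) through Shmt2 (78.6 ± 6.36), Phgdh (73.5 ± 10.9), Psat1 (56.4 ± 3.19), Slc3a2 (44.3 ± 3.73), Slc7a5 (33.7 ± 2.61), Asns (26.04 ± 1.80), Ddit3 (19.5 ± 1.58) and Trib3 (1.92 ± 0.527) to Slc7a11 (0.329 ± 0.0452; all SD, n = 4). Shmt2 and Phgdh overlapped in range. For every other pair of neighbours in this order, the lowest control value of the upper gene exceeded the highest of the lower gene. The order was kept in cKO except that Asns (25.1 TPM ± 1.46) and Slc7a5 (24.6 TPM ± 1.42) changed places. Slc7a5 lay above Asns in 4 of 4 control libraries, and Asns lay above Slc7a5 in 3 of 4 cKO libraries.

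Atf4 (chr15:80255184-80257545, plus strand) was the most abundant of the 10. Its level in cKO replicates 1 to 4 was 136.9, 129.97, 129.2 and 134.1 TPM, and in control replicates 1 to 4 it was 160.6, 132.4, 159.7 and 150.8 TPM. All 4 cKO libraries lay below the control mean, but control replicate 2 fell within the cKO range, so the groups overlapped. The fitted log2 change was -0.18 (95% interval -0.32 to -0.04), which did not pass (limma adjusted p = 0.118). Without control replicate 2 the change was -0.24 and passed (limma adjusted p = 0.0370), and over the 18 alternatives the adjusted p ranged from 0.0370 to 0.259.

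Atf4 shares its locus with the targeted gene. Rps19bp1 (chr15:80260614-80264306, minus strand) has its end 3068 bases beyond the end of Atf4, so the genes converge. On the other side, Mief1 (chr15:80233964-80253372, plus strand), which encodes a mitochondrial dynamics protein, ends 1811 bases before Atf4 begins. Mief1 stood at 18.1 TPM ± 1.16 in cKO and 18.8 TPM ± 0.291 in control (SD, n = 4), a log2 change of -0.05 (95% interval -0.18 to 0.08, limma adjusted p = 0.632). The change of Rps19bp1 itself was -1.37 (limma adjusted p = 0.000508), and its interval of -1.66 to -1.09 does not reach that of Atf4 or of Mief1. Whether the floxed allele touches the level of Atf4 was not tested.

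The profile of Atf4 over the 8 libraries was compared with those of 9182 other genes with a mean of at least 10 TPM, Gm and Rik symbols left out. Likeness was the root-mean-square difference of log2(TPM + 1), each gene centred on its own mean. The nearest were Zdhhc12 (0.0346), Rcc2 (0.0355), Tkt (0.0398), Bag3 (0.0405) and Timeless (0.0421), beside a median of 0.140 over the genes compared. A flat profile would lie 0.122 from that of Atf4. The log2 changes of the 5 lay between -0.20 and -0.12, and 0 of the 5 passed limma's test. Changes near that of Atf4 follow from how the 5 were picked.

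Ddit3 and Trib3 stand downstream of Atf4. Ddit3 encodes CHOP, a C/EBP-related factor linked to cell death under lasting stress, and Trib3 encodes a pseudokinase that Atf4 and CHOP induce and that restrains them. Ddit3 (chr10:127290793-127296291, plus strand) measured 18.5, 20.7, 16.2 and 15.6 TPM in cKO and 21.2, 17.6, 20.3 and 18.8 TPM in control, replicates 1 to 4. Only cKO replicates 3 and 4 lay below the lowest control. Its log2 change was -0.13 (95% interval -0.34 to 0.07, limma adjusted p = 0.426), with -0.21 if cKO replicate 2 was left out and -0.08 if cKO replicate 4 was. The row overlaps Mbd6 and Mars1 on the opposite strand, and the use of strand in counting is not given in the sources used here.

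Trib3 (chr2:152337425-152344060, minus strand) was barely present, at 2.04, 1.57, 0.933 and 1.398 TPM in cKO and 1.32, 1.83, 1.91 and 2.61 TPM in control, replicates 1 to 4. The highest value was control replicate 4 and the lowest cKO replicate 3, with the rest interleaved. Its log2 change of -0.23 had a wide 95% interval of -0.61 to 0.15 (limma adjusted p = 0.453). It moved to -0.12 if either of those libraries was left out, and to -0.36 and -0.09 with pseudocounts of 0.1 and 5. Both genes are inducible and neither was called higher in cKO. In the main fit the upper ends of their 95% intervals were 0.07 for Ddit3 and 0.15 for Trib3. These intervals are unadjusted and the fitted changes moved with the settings, so they set no firm limit on a rise.

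Among the enzymes, Asns makes asparagine from aspartate and glutamine. Asns (chr6:7675165-7693209, minus strand) held 26.1, 24.7, 23.2 and 26.3 TPM in cKO and 27.9, 23.8, 27.1 and 25.4 TPM in control, replicates 1 to 4. The groups overlapped over most of their range, and the log2 change was -0.05 (95% interval -0.20 to 0.09, limma adjusted p = 0.681), with a range of -0.09 to -0.02 over the alternatives. It carries the core shown above, as do Trib3 and Slc7a11. Asns and the barely present Trib3 were not called, beside 6.4% of all tested rows called. Slc7a11 was not tested in the main fit.

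Serine synthesis branches from glycolysis. Phgdh takes the first step, Psat1 the second, and Shmt2 then splits serine inside mitochondria into glycine and a one-carbon unit. Phgdh (chr3:98313171-98339969, minus strand) measured 64.6, 62.2, 56.0 and 59.5 TPM in cKO and 88.5, 69.7, 72.9 and 62.7 TPM in control, replicates 1 to 4. Control replicate 4 lay within the cKO range, and control replicate 1 stood highest. The log2 change was -0.26 (95% interval -0.47 to -0.06, limma adjusted p = 0.123), and it was -0.17 without control replicate 1 and -0.34 without control replicate 4.

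Psat1 (chr19:15905123-15925059, minus strand) measured 59.1, 53.5, 49.0 and 56.7 TPM in cKO and 58.4, 51.6, 58.0 and 57.4 TPM in control, replicates 1 to 4. The highest of the 8 values was a cKO library, and the log2 change of -0.05 (95% interval -0.20 to 0.10, limma adjusted p = 0.711) turned to 0.009 after quantile normalization. The ratio of Psat1 to Phgdh within a library was 0.900 ± 0.0420 in cKO and 0.778 ± 0.107 in control (SD, n = 4). The groups overlapped, and the difference did not pass (exact two-sided permutation p = 0.0857, the same after adjustment over the 2 ratios examined). Without control replicate 4 the log2 difference of this ratio went from 0.22 to 0.30 (exact permutation p = 0.0286, the smallest possible with 1 library left out).

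Shmt2 (chr10:127517123-127522444, minus strand) measured 70.2, 70.8, 54.8 and 66.8 TPM in cKO and 74.7, 71.6, 83.3 and 84.6 TPM in control, replicates 1 to 4. Every cKO library lay below every control library, but the gap between cKO replicate 2 and control replicate 2 was small. The log2 change was -0.26 (95% interval -0.45 to -0.06), which did not pass (limma adjusted p = 0.109), while leaving out cKO replicate 3 gave -0.18. The row overlaps Ndufa4l2 on the opposite strand.

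The transporter genes gave the 1 call. Slc3a2 encodes the heavy chain CD98hc, which carries its partner to the cell surface. Slc7a5 encodes the light chain LAT1, which imports leucine and other large neutral amino acids, and Slc7a11 encodes the light chain xCT, which imports cystine in exchange for glutamate.

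Slc7a5 (chr8:121881146-121907686, minus strand) measured 22.8, 23.9, 25.7 and 25.8 TPM in cKO and 31.0, 32.1, 35.1 and 36.6 TPM in control, replicates 1 to 4. The highest cKO library stood clearly below the lowest control. The cKO mean of 24.6 TPM ± 1.42 was 72.9% of the control mean of 33.7 TPM ± 2.61 (SD, n = 4). The level fell by 0.44 on the log2 scale (95% interval -0.59 to -0.29, SE 0.0664, limma adjusted p = 0.00729). Over the 18 alternatives the change ran from -0.48 to -0.39 and the adjusted p from 0.00533 to 0.0299, so the call held in all of them.

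Slc3a2 (chr19:8706882-8723369, minus strand) measured 40.3, 40.5, 41.0 and 36.6 TPM in cKO and 41.6, 42.2, 43.9 and 49.7 TPM in control, replicates 1 to 4. The groups did not overlap, yet cKO replicate 3 and control replicate 1 nearly met. The log2 change was -0.16 (95% interval -0.30 to -0.01) and did not pass (limma adjusted p = 0.178), and leaving out control replicate 4 gave -0.10.

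Within a library, the ratio of Slc7a5 to Slc3a2 was 0.567, 0.591, 0.626 and 0.704 in cKO and 0.745, 0.762, 0.800 and 0.736 in control, replicates 1 to 4. This ratio does not depend on how a library is scaled. Light chain message was thus lower relative to heavy chain message in every cKO library than in any control (0.622 ± 0.0598 against 0.761 ± 0.0284, SD, n = 4). The exact two-sided permutation p was 0.0286, the smallest that 4 against 4 libraries can give, and 0.0571 after Benjamini-Hochberg adjustment over the 2 ratios. These ratios were chosen after the values were seen.

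**Figure D2:**
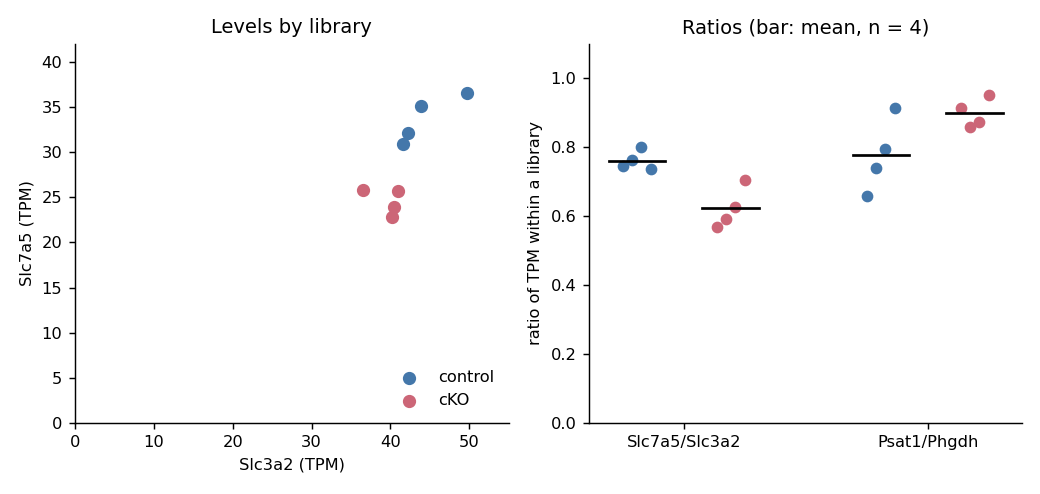
Left, Slc7a5 against Slc3a2 in TPM, 1 point per library; right, the ratios Slc7a5/Slc3a2 and Psat1/Phgdh within each library, with the group mean as a bar (n = 4). The cKO ratios of Slc7a5 to Slc3a2 lie at 0.567 to 0.704, below all control ratios at 0.736 to 0.800, whereas those of Psat1 to Phgdh overlap.

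Slc7a11 (chr3:50364936-50499087, minus strand) did not reach the mean of 1 TPM and was not tested in the main fit. It measured 0.236, 0.378, 0.217 and 0.274 TPM in cKO and 0.276, 0.349, 0.312 and 0.380 TPM in control, replicates 1 to 4. The groups overlapped, and at this level a difference was not detectable (exact two-sided permutation p = 0.229, limma adjusted p = 0.671 without a filter on low values).

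**Figure D3:**
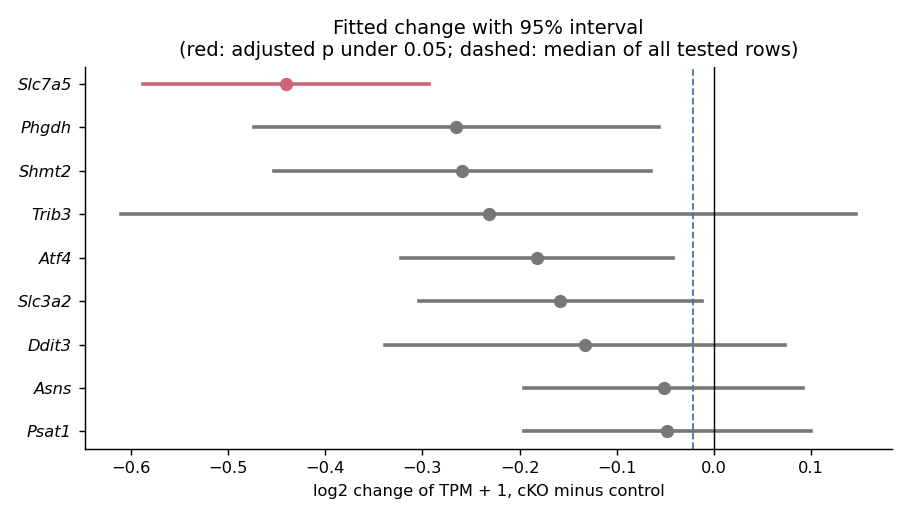
Fitted log2 change of TPM + 1, cKO minus control, for the 9 tested genes, with 95% intervals from limma; the dashed line is the median of all tested rows at -0.02. Slc7a5 at -0.44 is the 1 gene past the adjusted threshold, and the intervals of Trib3, Ddit3, Asns and Psat1 span 0.

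The wider amino acid and stress response was followed in 6 gene groups, with the 3 members of smallest p named from each. Upstream of Atf4, a group of 12 genes covered the eIF2 kinases, eIF2 and its exchange factor eIF2B, with the Gcn2 regulators Gcn1 and Impact. This group had 0 calls by limma, beside 6.4% of all tested rows called. At an unadjusted p under 0.05 it had 3 members, beside 23.7% of all tested rows. Its median log2 change was -0.06, and this was -0.02 after quantile normalization, -0.025 without cKO replicate 3 and -0.10 without control replicate 4. Eif2b4 (-0.16), the haem-regulated kinase Eif2ak1 (-0.13) and Eif2s1 (-0.11) had limma adjusted p between 0.129 and 0.193. Eif2ak3, which encodes the endoplasmic reticulum kinase PERK, measured 11.03 TPM ± 0.634 in cKO and 11.04 TPM ± 0.796 in control (SD, n = 4), and Eif2ak4, which encodes the amino acid sensor GCN2, had a change of -0.03. Those 2 were picked for their roles after their values were seen.

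Beside Atf4, 14 other stress factors and feedback genes were listed and 11 were tested. Of these 1 was called higher and 0 lower, beside 2.16% and 4.23% of all tested rows. Their median of -0.06 moved to -0.002 without cKO replicate 2, -0.036 without cKO replicate 3, -0.085 without cKO replicate 4 and -0.024 without control replicate 4, and to -0.022 after quantile normalization. Sesn2, whose product restrains mTORC1 and which p53 also induces, stood at 11.5 TPM ± 0.934 in control and rose to 28.01 TPM ± 2.44 in cKO (SD, n = 4). Its log2 change was 1.22 (limma adjusted p = 4.34e-05). Ddit4, another mTORC1 restraint gene and p53 target, measured 45.9 TPM ± 1.99 in cKO and 35.9 TPM ± 6.67 in control (log2 change 0.36, limma adjusted p = 0.0829), and it passed without control replicate 4 (0.45, adjusted p = 0.0430). Ppp1r15b, a subunit of the phosphatase that resets eIF2, had a change of -0.13 (limma adjusted p = 0.152). Nupr1, Chac1 and Fgf21 lay below a mean of 1 TPM, and Fgf21 was listed at 0 in all libraries.

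Of 18 further genes of serine, one-carbon, proline and glutamine metabolism, 17 were tested. Of these 2 were called (11.8%), both lower, beside 4.23% of all tested rows called lower. Their median of -0.10 moved to -0.04 without cKO replicate 4, -0.054 without cKO replicate 3 and -0.066 without control replicate 4. Shmt1, the cytosolic counterpart of Shmt2, stood at 34.9 TPM ± 0.995 in control and fell to 29.1 TPM ± 2.204 in cKO (SD, n = 4), a change of -0.26 (limma adjusted p = 0.0362). Mthfd1, which interconverts folate one-carbon units in the cytosol, fell from 39.5 TPM ± 0.763 in control to 33.6 TPM ± 2.49 in cKO (SD, n = 4), a change of -0.23 (limma adjusted p = 0.0430). Glul, which makes glutamine, stood at 61.2 TPM ± 3.16 in cKO and 53.1 TPM ± 2.22 in control with an adjusted p of 0.050005, just outside limma's threshold, and passed under 7 of 18 alternatives. The calls of Shmt1 and Mthfd1 were lost under 11 and 13 of the 18 alternatives, among them quantile normalization, median-ratio scaling and the omission of any 1 control library.

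Of 18 other amino acid transporters, 16 were tested, with 1 called lower and 1 higher (12.5% called, beside 6.4% of all tested rows). Their median of 0.02 moved to 0.006 without cKO replicate 3, 0.015 without control replicate 1 and 0.036 without control replicate 4, to 0.057 after rescaling without mitochondrial and globin rows, and to 0.005 over genes with a mean of at least 5 TPM. Slc1a5, which imports glutamine, fell from 51.1 TPM ± 3.08 in control to 41.6 TPM ± 2.15 in cKO (SD, n = 4), a change of -0.29 (limma adjusted p = 0.0222). Slc43a2, a neutral amino acid transporter that needs no heavy chain, rose from 5.21 TPM ± 0.251 in control to 6.78 TPM ± 0.229 in cKO (SD, n = 4), a change of 0.33 (limma adjusted p = 0.0234). Slc38a10 had a change of -0.11 (limma adjusted p = 0.251). Each of the 2 calls was lost under 6 of the 18 alternatives, among them the omission of cKO replicate 1, control replicate 1 or control replicate 3. The other light chains that pair with Slc3a2, looked up after the values were seen, included Slc7a6 (log2 change -0.03), Slc7a7 (0.07) and Slc7a8 (0.13), and 0 of these 3 passed. Slc7a10, below a mean of 1 TPM and not tested, measured 0.817 TPM ± 0.222 in cKO and 0.836 TPM ± 0.494 in control (SD, n = 4).

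The 20 cytosolic aminoacyl-tRNA synthetase genes, which charge tRNAs and many of which are Atf4 targets, were all tested. Of them 3 (15%) were called lower and 0 higher, beside 4.23% and 2.16% of all tested rows. Their median of -0.10 moved to -0.04 after quantile normalization and -0.065 after rescaling without mitochondrial and globin rows. All 20 fitted changes lay below 0, beside 55.8% of all tested rows. That count was 15 after quantile normalization (51% of all rows), 18 after median-ratio scaling (49.2%) and 17 after the rescaling (47.2%). Gars (glycine) fell from 208 TPM ± 6.31 in control to 166 TPM ± 12.6 in cKO (SD, n = 4), a change of -0.32 (limma adjusted p = 0.0136). Kars (lysine, -0.21, adjusted p = 0.0351) and Nars (asparagine, -0.21, adjusted p = 0.0358) fell as well. Gars was called under all 18 alternatives, whereas Kars and Nars lost limma's call under 12 and 13 of them.

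The endoplasmic reticulum chaperones and sensors, which answer to the other arms of the unfolded protein response, gave 0 calls by limma among 20 genes. The share of all tested rows called was 6.4%. At an unadjusted p under 0.05 there were 3 of the 20, beside 23.7% of all tested rows. The median of the 20 genes, -0.04, turned to 0.002 after quantile normalization. Leaving out 1 library gave -0.093 (cKO replicate 2) at the low end, with -0.09 for control replicate 4, and -0.015 (control replicate 1) at the high end. Hsp90b1 (-0.18), Sdf2l1 (-0.15) and the sensor Ern1 (0.24) had limma adjusted p between 0.115 and 0.148.

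**Figure D4:**
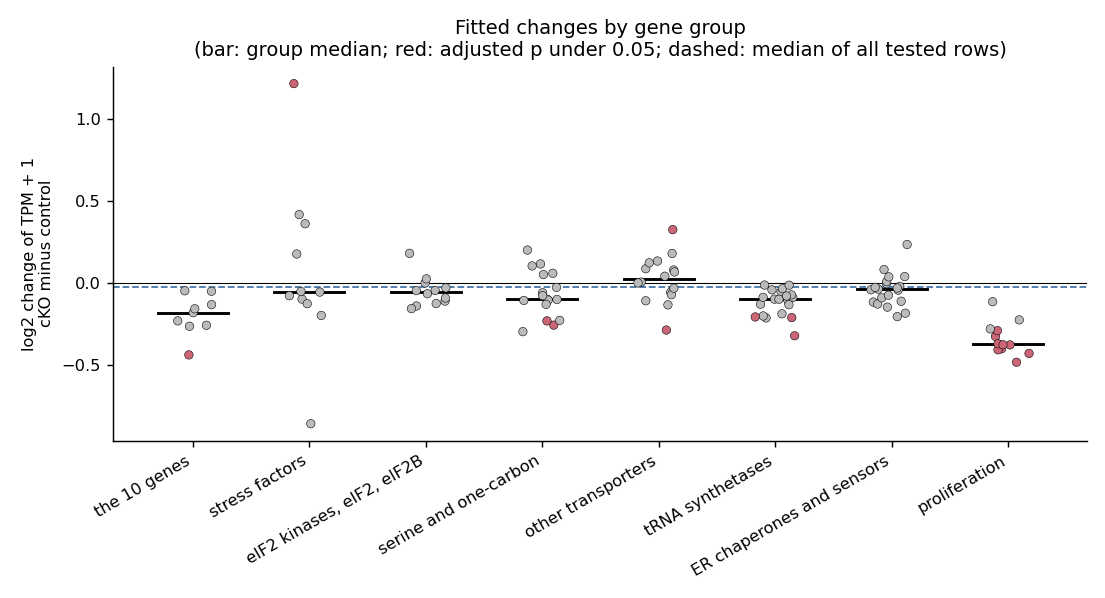
Fitted log2 change of TPM + 1, cKO minus control, for every tested gene of the 10 genes, of the 6 surrounding groups and of a proliferation group; bars are group medians, red points passed the adjusted threshold and the dashed line is the median of all tested rows. The medians lie at -0.18 for the 10 genes, between -0.10 and 0.02 for the 6 surrounding groups, and at -0.38 for proliferation.

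Other gene groups moved with the genotype. Among all tested rows, 4.23% were called lower and 2.16% higher, and 55.8% of fitted changes lay below 0. Of 12 proliferation genes 9 were called lower and 0 higher (median -0.38), and their summed level ran from 1002 to 1199 TPM in cKO and from 1383 to 1528 TPM in control. Of 6 epicardial genes 4 were called higher, with sums of 327 to 418 TPM in cKO and 269 to 302 TPM in control. Of 7 mesenchymal genes 4 were called higher, with sums of 842 to 1014 TPM in cKO and 569 to 730.4 TPM in control. Of 10 cardiomyocyte genes 0 were called by limma, with 3 at an unadjusted p under 0.05, beside 23.7% of all tested rows. Their fitted changes lay below 0 in 8 (median -0.05, and -0.12 after quantile normalization). Their sums overlapped, at 48154 to 50595 TPM in cKO and 48466 to 52721 TPM in control. In 3 of the 10 the groups did not overlap, beside 15.6% of all tested rows. Myh6 (-0.185) and Tnni1 (-0.159) lay lower in cKO and Nppa (0.435) higher, with limma adjusted p between 0.0768 and 0.128. The 8 endothelial, 8 erythroid and 5 tested macrophage genes also gave 0 calls by limma, with 4, 1 and 1 at an unadjusted p under 0.05. Endothelial genes had 7 of 8 fitted changes above 0 (median 0.13), with sums of 778 to 882 TPM in cKO and 728 to 775 TPM in control. Erythroid genes had 8 of 8 below 0 (median -0.41, but -0.11 without control replicate 4, -0.22 without cKO replicate 3 and -0.635 without control replicate 1), with overlapping sums of 1758 to 3767 and 1975 to 7178 TPM. Macrophage genes had 5 of 5 above 0 (median 0.47, but 0.377 without control replicate 2 and 0.671 without cKO replicate 4). Sums over the 6 macrophage genes listed overlapped, at 10.5 to 28.9 TPM in cKO and 10.2 to 18.5 TPM in control. None of these markers was listed at 0. Whether these shifts have a part in the lower Slc7a5, Slc1a5, Shmt1, Mthfd1 and synthetase levels was not tested.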

How the data were processed

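The authors deposited 1 table of TPM values for 8 libraries, which hold no counts. The submitters' processing notes name Trim Galore 0.6.7, HISAT2 2.2.1, StringTie 2.2.1 and featureCounts with build GRCm38, without roles. The annotation and the use of strand are not given in the sources used here. The labels disagree on library type, with ribosomal RNA depletion in the extraction text and poly(A) selection in the series text. Row coordinates matched RefSeq GRCm38.p6 for all 10 genes. Groups and replicate numbers came from the sample titles.

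log2(TPM + 1) was fitted in R 4.3.3 with limma 3.58.1 (lmFit, eBayes with a trend, group as the only term, two-sided) on 15541 rows with a mean of at least 1 TPM, after a test on simulated data. Exact permutation tests ran over 70 assignments, and over fewer where 1 library was left out. Alternatives were pseudocounts of 0.1 and 5, no filter, a mean of at least 5 TPM, quantile, median-ratio and mitochondria- and globin-free scaling, no trend, array weights, a replicate block, and leaving out each library. Leaving out libraries for the 2 ratios was chosen after seeing the data. The members and lists were chosen with earlier results of these data known. Genes named were the 10, the neighbours of Atf4, the 3 list members of smallest p, the 5 profiles nearest Atf4, and others as stated. Figures were drawn with matplotlib 3.10.9.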

Additional observations from a re-analysis of the deposited data

Results flagged for a closer look

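Single libraries stood apart from the rest of their group of 4 in 3 of 58 groups examined (29 genes in 2 genotypes). Chance gives about 1 in 20, so this count is about what chance alone would give. Psat1 in control replicate 2 was 51.6 TPM, below the other controls at 57.4 to 58.4 TPM. Slc3a2 in cKO replicate 4 was 36.6 TPM, below the other cKO libraries at 40.3 to 41.0 TPM. Slc43a2 in cKO replicate 3 was 6.44 TPM, below the other cKO libraries at 6.86 to 6.92 TPM and above all controls.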

How the results depend on the processing

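Of the 10 genes, 1 was called lower under 17 of 18 alternatives, and the count over single omitted libraries ran from 1 to 2, the second being Atf4 without control replicate 2. The count called higher was 0 under all 18. The number of all rows called fell from 994 to 347 without a filter on low values, 609 without a trend and 420 with the replicate block. Over single omitted libraries it ran from 390 to 938, and fell most without cKO replicate 1 or 3 (400 and 419) or without control replicates 1 to 4 (390, 451, 421 and 588). The cause was not tested. The fitted change of Psat1 turned from -0.05 to 0.009 after quantile normalization, and over single omitted libraries it ran from -0.088 to 0.0021 (without cKO replicate 3). The change of Slc7a5 was -0.44 with the replicate block too (range over single omitted libraries -0.48 to -0.40). Deviations of same-numbered libraries correlated at -0.0107, 0.0674, 0.0576 and -0.0891 for numbers 1 to 4, and replicates 1 and 4 correlated best with another number, so the numbers were not taken as pairs. The ratio of Slc7a5 to Slc3a2 kept its direction in 8 of 8 omissions, with an exact permutation p of 0.0286 or 0.0571. TPM gives no depth, which limits what can be said of Trib3 and Slc7a11. Trib3 was not tested with a mean of at least 5 TPM, and Slc7a11 was tested without a filter alone.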

Other observations

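Cebpb, which encodes a C/EBP partner of Atf4, divided the cKO libraries and was picked out after its values were seen. It measured 7.04, 7.51, 24.5 and 25.0 TPM in cKO replicates 1 to 4 and 28.9, 27.3, 29.1 and 18.4 TPM in control replicates 1 to 4. The log2 change of -0.86 did not pass (95% interval -1.72 to -0.004, limma adjusted p = 0.209). In the same cKO libraries Atf4 lay between 129 and 137 TPM.

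The core TGATGNAA was found in 6 of 13 stress factor genes with a promoter window (46.2%), 5 of 13 synthetase genes (38.5%), 2 of 14 serine and one-carbon genes, 2 of 14 other transporters, 1 of 17 chaperone genes and 0 of 10 eIF2 genes, beside 3.97% of all windows. The group counts are of genes with the core in any window, so a gene with several windows had more chances than a single window.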
